A study of Saccharomyces cerevisiae with 40 samples.

Results

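The peroxins are the proteins that build peroxisomes, the organelles in which yeast breaks down fatty acids, and they were taken here as every gene that the target tables name PEX followed by digits only. That rule found 27 genes among the 7125 genes of the tables. Binding was measured by ChIP-exo, in which an exonuclease trims immunoprecipitated DNA back to the edge of the cross-linked protein, for 5 transcription factors (TFs) of Saccharomyces cerevisiae: Ino2, Ino4, Hap1, Oaf1, and Pip2. Each TF was tagged at its C terminus with CBP-ProtA in 1 strain made from CEN.PK 113-5D, and each strain was grown in chemostats under 4 limitations with 2 replicates, 40 samples in all. The limitations were nitrogen with 6% glucose (N-lim), 0.5% ethanol (Et-lim), oxygen and glucose with 1% glucose (Ox,Glu-lim), and 0.75% glucose (Glu-lim), as percent (w/v) of the carbon source in the labels. The methods of the study give a lower glucose concentration for Ox,Glu-lim than its label, the same as for Glu-lim. They also state that the Ox,Glu-lim medium alone held Tween, a detergent that is an ester of oleate, and ergosterol, so that low oxygen and these supplements cannot be told apart. No untagged strain is among the groups.

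Matrix proteins of the peroxisome are folded in the cytosol and carried by receptors to a docking complex in the peroxisomal membrane. The receptors are then ubiquitinated by RING peroxins and pulled back out of the membrane for another round. Other peroxins insert membrane proteins or set the number and size of the organelles. In cells fed oleate, Oaf1 and Pip2 bind together to oleate-response elements before genes of fatty acid breakdown and peroxisome formation. Ino2 and Ino4 act together on genes of phospholipid synthesis, and Hap1 responds to heme.

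Oaf1 and Pip2 events were listed on 3 of the 27 peroxins, PEX5, PEX6, and PEX11, against 8.22% of all genes. The other 24 peroxins had no event of any TF. Over all TFs and conditions, 11.1% of peroxins had at least 1 event, against 19.2% of all genes. PEX5 is the receptor for matrix proteins with the C-terminal targeting signal, PEX6 is an ATPase that helps to release that receptor from the membrane, and PEX11 promotes the division and proliferation of peroxisomes. All 3 carried Oaf1 events, and PEX5 and PEX11 also carried Pip2 events. PEX5 and PEX11 share their promoters with a neighbor, and with each event given only to the nearest start codon, 2 peroxins (PEX5 and PEX6) kept an Oaf1 event and 0 kept a Pip2 event. Of the 540 possible combinations of peroxin, TF, and condition, 11 held an event, 8 of Oaf1 and 3 of Pip2. The values are log2 of the signal-to-noise ratio (S/N) of the highest event on each gene, and an event was listed where this was above 1. The 11 events on peroxins lay between 2.14 and 3.85.

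The promoters of these 3 genes are shown because all 3 held the same kind of element in the gap to the next gene. Each is printed from the R64 reference genome of RefSeq, 5′ to 3′ in the direction of the peroxin, and ends at the last base before the start codon. The capitals mark a match to CGGNNNTNA, then 9 to 12 bases, then CCG, searched on both strands and called the long element below. The PEX11 gap is chrXV:48644-48863 (minus strand), the PEX5 gap is chrIV:950285-950562 (plus strand), and the PEX6 gap is chrXIV:22634-22833 (minus strand).
PEX11 promoter: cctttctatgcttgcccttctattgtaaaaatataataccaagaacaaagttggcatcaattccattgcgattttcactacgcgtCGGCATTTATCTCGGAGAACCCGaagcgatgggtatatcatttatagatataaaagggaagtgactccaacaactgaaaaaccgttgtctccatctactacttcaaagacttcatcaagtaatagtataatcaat
PEX5 promoter: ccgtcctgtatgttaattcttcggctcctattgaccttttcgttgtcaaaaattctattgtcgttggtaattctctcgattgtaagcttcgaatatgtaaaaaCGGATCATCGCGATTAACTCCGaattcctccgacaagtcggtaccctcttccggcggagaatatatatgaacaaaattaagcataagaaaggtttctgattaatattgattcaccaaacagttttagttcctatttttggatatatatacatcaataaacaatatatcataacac
PEX6 promoter: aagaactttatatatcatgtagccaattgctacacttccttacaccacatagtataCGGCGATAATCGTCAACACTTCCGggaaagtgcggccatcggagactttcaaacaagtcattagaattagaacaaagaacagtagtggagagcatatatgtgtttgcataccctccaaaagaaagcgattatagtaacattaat

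Read with CGG first, the 3 elements line up as follows, together with the element of PEX13, which lay in its gap but had no event listed. Capitals here mark the fixed bases of the element, and all are read from the minus strand of R64.
PEX11 element: CGGcatTtAtctcggagaacCCG
PEX5 element: CGGagtTaAtcgcgatgatCCG
PEX6 element: CGGcgaTaAtcgtcaacacttCCG
PEX13 element: CGGaaaTaAaaaaaatttggcCCG
The PEX11 element occupied chrXV:48756-48778, 135 to 113 bp before the start codon, with 11 bases in the spacer. The PEX5 element at chrIV:950388-950409 lay 175 to 154 bp before the start codon and pointed away from the gene, with a spacer of 10 bases. The PEX6 element at chrXIV:22754-22777 lay 144 to 121 bp before the start codon, with a spacer of 12 bases. The PEX13 element at chrXII:537116-537139 lay 156 to 133 bp before the start codon, also with a spacer of 12 bases. In regions of the same length, which could be read before 6001 of the 6002 nuclear protein-coding genes of the reference, a long element was found in 0.7% at 220 bp (the length of the PEX11 gap), in 0.917% at 278 bp (PEX5), and in 0.633% at 200 bp (PEX6). This form of the element differs from the one that the paper cites and was chosen after the promoters had been seen.

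Within 600 bp upstream of the start codon, 5 of the 27 peroxins held a long element, and 3 of these 5 were the peroxins with events. The other two were PEX13 and PEX14, both parts of the docking complex. The PEX14 element lay 596 to 575 bp upstream, beyond the gap of 176 bp that separates PEX14 from its neighbor LYS5. The remaining 22 peroxins had neither a long element nor an event. The form of the element was chosen after promoters of peroxins with events had been seen, so these counts do not test it. Among 5999 protein-coding genes with a full 600 bp, 139 (2.32%) held a long element. An Oaf1 or Pip2 event was listed for 49 of these 139 genes (35.3%), and for 477 of the 5860 genes without the element (8.14%). The 49 genes include PEX5, PEX6, and PEX11.

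The events were set against the elements base by base. On PEX11, the Oaf1 events under N-lim and Ox,Glu-lim lay inside the element, 121 and 120 bp before the start codon, and the Pip2 event under Et-lim lay on its last base, 113 bp before the start codon. All 3 Oaf1 events on PEX6 were inside the element, 137 bp (N-lim), 141 bp (Et-lim), and 134 bp (Ox,Glu-lim) upstream. None of the 4 events listed for PEX5 lay inside its element. The nearest, Oaf1 under Et-lim at 178 bp, was 3 bp outside, and the Oaf1 event under Glu-lim was 35 bp from it. The Pip2 events on PEX5 were 63 bp (Et-lim) and 78 bp (Glu-lim) away. In total, 6 of the 11 events on peroxins lay inside a long element. These were the same sites listed again over conditions and TFs, within 7 bp on PEX6 and within 8 bp on PEX11. Because the form of the element was chosen after these promoters had been seen, this count is not a test of it. Over all distinct Oaf1 events, the share inside such an element was 14.7% under N-lim, 8.38% under Et-lim, 17.6% under Ox,Glu-lim, and 8.19% under Glu-lim. For Pip2 it was 13.8% under Et-lim and 13.2% under Glu-lim.

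**Figure D1:**
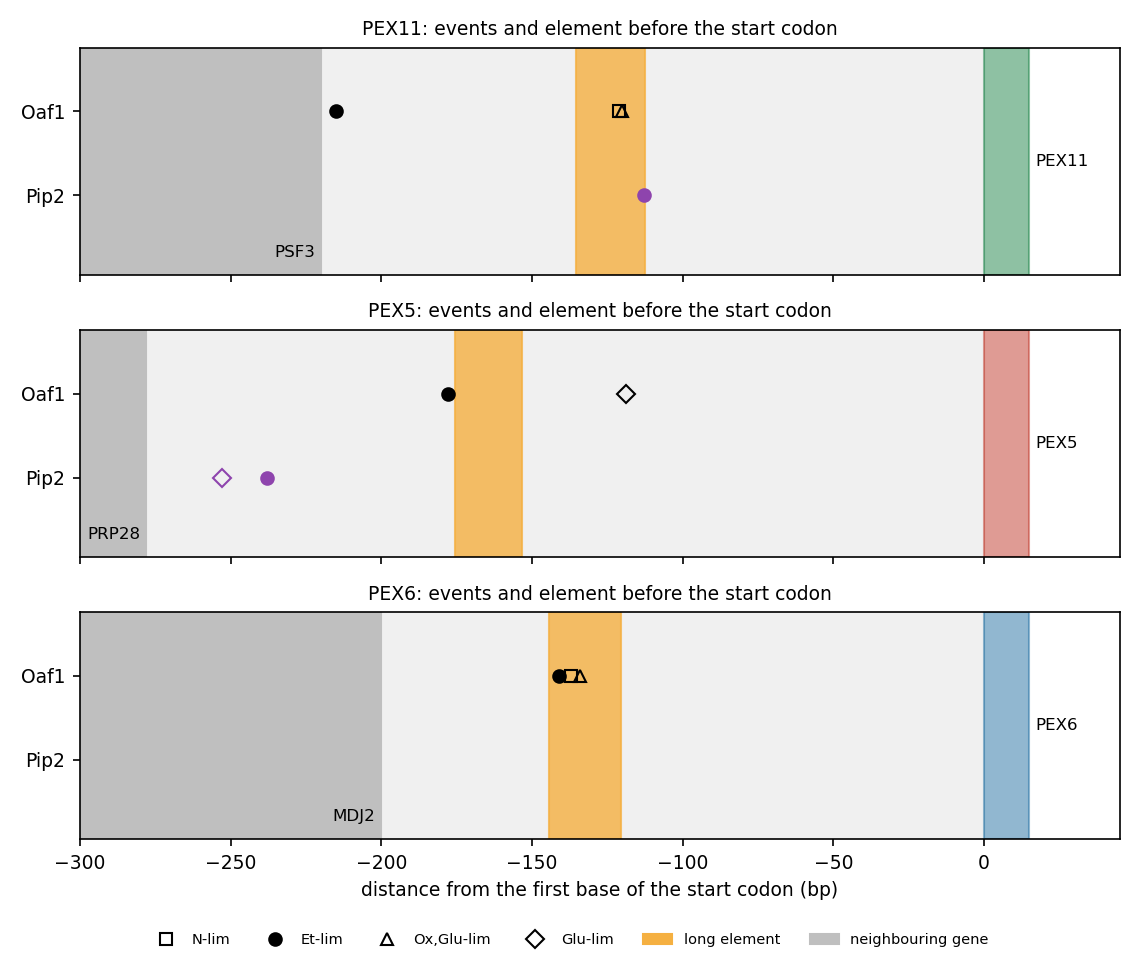
Positions of the Oaf1 and Pip2 events before PEX11, PEX5, and PEX6, in bp from the first base of the start codon, with 1 symbol per condition (filled circles, Et-lim). Light gray is the gap between genes, dark gray the neighboring gene, and the orange band the long element. Events on PEX6 fall within the band, those on PEX5 do not, and PEX11 has 3 in the band and 1 at the far end of the gap.

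The shorter motifs searched were in part common. CGGNNNTAA, which is a special case of CGGNNNTNA, was found within 600 bp of 14 of the 27 peroxins and of 16.4% of protein-coding genes, and 12 of those 14 peroxins had no event. Of the 984 protein-coding genes with this motif, 132 (13.4%) had an Oaf1 or Pip2 event. CCGNNNTA was also found before 14 peroxins and before 39.2% of protein-coding genes. CGGNNNTNA, the first part of the long element, was before 22 peroxins and 44.5% of protein-coding genes. The compact element, CGGNNNT, then 7 to 10 bases, then CCG, was found before PEX2, PEX14, PEX17, and PEX21 and before 5.43% of protein-coding genes. None of these 4 peroxins had an event. Among all protein-coding genes, an Oaf1 or Pip2 event was listed for 64 of 326 with the compact element (19.6%). Without it the share was 462 of 5673 (8.14%). The paper cites the compact form as the earlier motif for Oaf1 and Pip2 bound together. The compact element shares its first 7 bases with the start of the long element. No whole compact element lay within 20 or 50 bp of any of the 11 events on peroxins. CCGATA was before 3 peroxins and 13.2% of protein-coding genes, and CACATGC before 1 peroxin and 4.43%.

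Oaf1 was the TF with the most peroxins. Its events were on 3 of 27 peroxins (11.1%) over the 4 conditions, against 6.34% of all genes. Under N-lim it was on 2 peroxins (PEX6 and PEX11) against 2.3% of all genes, and under Et-lim on 3 against 4.01%. Under Ox,Glu-lim it was again on PEX6 and PEX11, against 2.33% of all genes, and under Glu-lim on PEX5 alone against 3.44%. Et-lim was thus the condition in which all 3 peroxins were listed.

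Pip2 events were on 2 of 27 peroxins (7.41%), against 3.3% of all genes. They were on PEX5 and PEX11 under Et-lim, where 1.59% of all genes were listed, and on PEX5 under Glu-lim, where 1.74% were listed. No peroxin had a Pip2 event under N-lim or Ox,Glu-lim, in which the table listed 0.758% and 0.575% of all genes. Taking both TFs together, 11.1% of peroxins had an Oaf1 or Pip2 event, against 8.22% of all genes, and 2 peroxins had both, against 1.42% of all genes. The Pip2 table differed from the others in how distance was counted. Of 306 Pip2 entries matched to the reference, 121 had a listed distance more than 1 bp from that to the start codon, and 117 of the 121 fitted the 3′ end of the gene within 1 bp. With only the entries that fitted the start codon, 1.78% of all genes had a Pip2 event. The 3 Pip2 entries of peroxins fitted the start codon.

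No peroxin had an Ino2, Ino4, or Hap1 event in any of the 4 conditions. Of all genes in the same tables, 11.7% had an Ino2 event, 9.46% an Ino4 event, 6.65% a Hap1 event, and 15.9% at least 1 of these. With 27 genes and 1 pooled value for each TF and condition, no test of these counts was made.

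**Figure D2:**
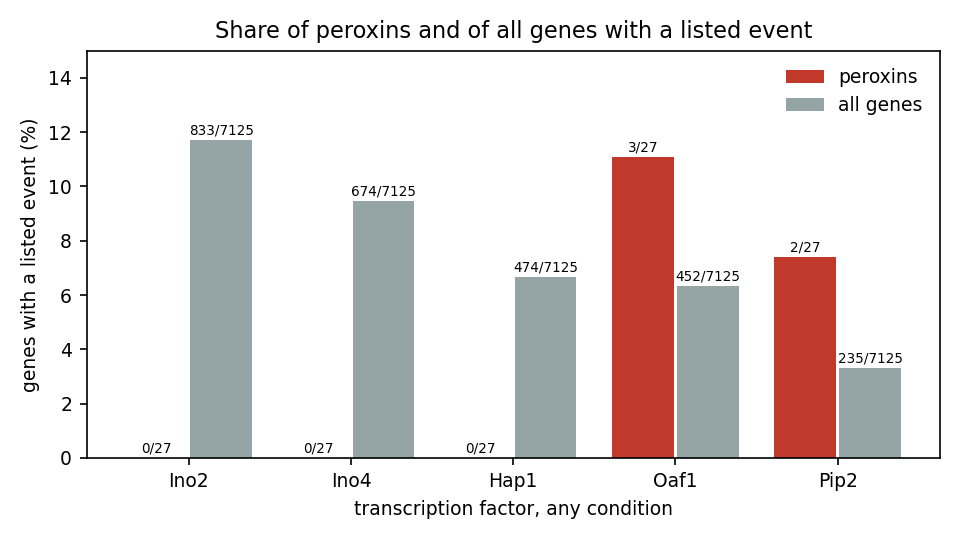
Percent of peroxins (red) and of all genes (gray) with a listed event in any condition for each TF, with the counts above the bars. Ino2, Ino4, and Hap1 stand at 0 of 27 peroxins, Oaf1 at 3, and Pip2 at 2.

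PEX11 (YOL147C, chromosome XV, 47933 to 48643, minus strand) shares its gap of 220 bp with PSF3, a subunit of the GINS replication complex that is transcribed in the opposite direction. Its Oaf1 log2(S/N) was 2.14 under N-lim at position 48764, 2.38 under Et-lim at 48858, and 3.55 under Ox,Glu-lim at 48763, and no Oaf1 event was listed under Glu-lim. The listed distances to ATG were -122, -216, and -121 bp, the minus sign marking a gene on the minus strand. The N-lim and Ox,Glu-lim positions were 1 bp apart, and the Et-lim position was 94 bp from the first of these and 6 bp from the start codon of PSF3. Values at the shared position were 2.14 under N-lim and 3.55 under Ox,Glu-lim, 1.41 apart on the log2 scale.

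Pip2 was listed on PEX11 under Et-lim only, with a log2(S/N) of 2.25 at position 48756, listed distance -114 bp. It lay 7 and 8 bp from the Oaf1 positions of Ox,Glu-lim and N-lim but 102 bp from the Oaf1 position of Et-lim, the same condition. Under Et-lim the log2(S/N) was 2.25 for Pip2 and 2.38 for Oaf1, a Pip2 minus Oaf1 difference of -0.13. The 5-base k-mers that the peak caller gave with the events were CGGAG (Oaf1, N-lim), its reverse complement CTCCG (Oaf1, Ox,Glu-lim), and CCCGA (Pip2, Et-lim), and each was found at the event position within the printed promoter. The Oaf1 Ox,Glu-lim event and the Pip2 event were also listed for PSF3, at 101 and 108 bp. The Oaf1 N-lim event lay 100 bp from the PSF3 start codon and was not listed for PSF3, and 101 bp was the smallest distance among all 5178 entries of the tables.

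PEX5 (YDR244W, chromosome IV, 950563 to 952401, plus strand) shares its gap of 278 bp with PRP28, an RNA helicase of the spliceosome on the opposite strand. Oaf1 was listed on PEX5 under Et-lim with a log2(S/N) of 2.94 at position 950385, 178 bp from ATG. Under Glu-lim it was 3.18 at position 950444, 119 bp from ATG. No Oaf1 event was listed under N-lim or Ox,Glu-lim, and the same 2 conditions lacked Pip2 on this gene. Both Oaf1 events were also listed for PRP28, at -102 bp (Et-lim) and -161 bp (Glu-lim).

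Pip2 on PEX5 had a log2(S/N) of 3.48 under Et-lim at position 950325, 238 bp from ATG, and 3.85 under Glu-lim at position 950310, 253 bp from ATG. These were the highest 2 values among the Pip2 events on peroxins, and 3.85 was the highest of all 11 events. The Pip2 positions were 15 bp apart between the conditions. They lay 41 bp (Et-lim) and 26 bp (Glu-lim) from the start codon of PRP28. Neither event was listed for PRP28, and no entry of any gene was nearer than 101 bp. Under Et-lim the log2(S/N) was 3.48 for Pip2 and 2.94 for Oaf1, a Pip2 minus Oaf1 difference of 0.54, with the positions 60 bp apart. Under Glu-lim it was 3.85 for Pip2 and 3.18 for Oaf1, a difference of 0.67, with the positions 134 bp apart. Because a table keeps only the highest event of each gene, a lower event can be seen through the neighbor. The PRP28 row lists a Pip2 event under Glu-lim with a log2(S/N) of 2.72 at position 950404, 159 bp before PEX5, and this position is inside the long element of PEX5. It lay 40 bp from the Oaf1 event of Glu-lim and 19 bp from that of Et-lim.

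PEX6 (YNL329C, chromosome XIV, 19541 to 22633, minus strand) follows MDJ2, which encodes a mitochondrial J-protein, on the same strand with a gap of 200 bp. Its Oaf1 log2(S/N) was 2.86 under N-lim at position 22770, 2.37 under Et-lim at 22774, and 2.21 under Ox,Glu-lim at 22767. Listed distances were -138, -142, and -135 bp, and no Oaf1 event was listed under Glu-lim. The 3 positions lay within 7 bp of each other, and the values within 0.64 on the log2 scale. The k-mer was CGGCG under Et-lim, the first bases of the element, and none was given in the other conditions. No Pip2 event was listed on PEX6, and no other gene was listed for its Oaf1 events. A weaker Oaf1 event under N-lim, listed for EGT2 with a log2(S/N) of 1.21, lay 487 bp upstream of PEX6.

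**Figure D3:**
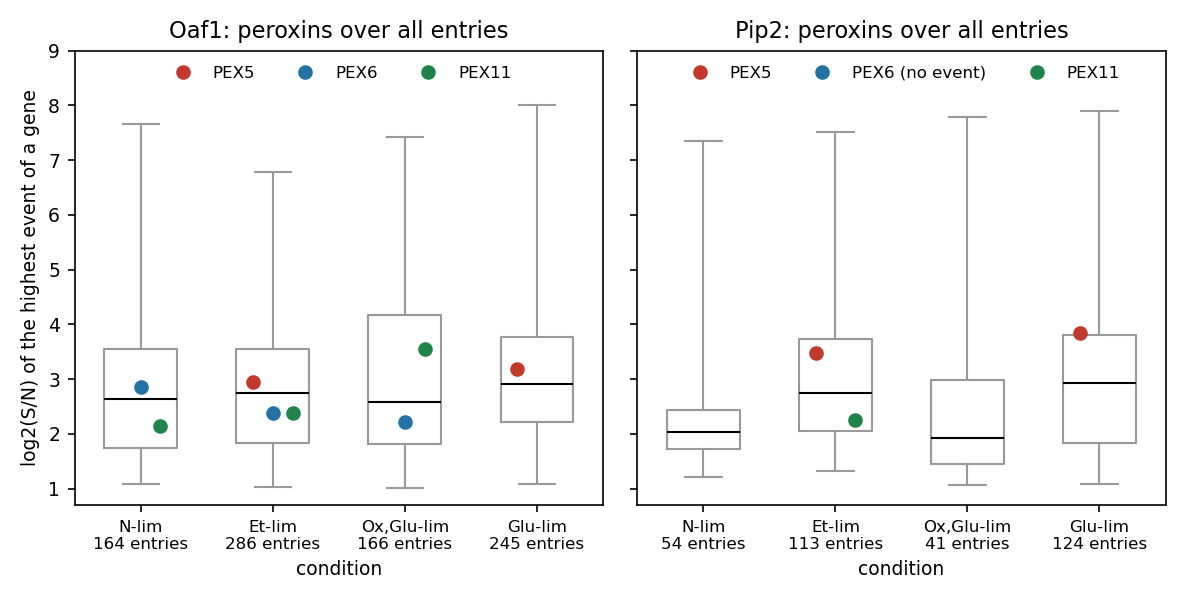
Log2(S/N) of the Oaf1 (left) and Pip2 (right) events on PEX5, PEX6, and PEX11 in each condition. Boxes give the quartiles and median of all genes with an event of that TF in that condition, and whiskers run to the lowest and highest value. The peroxin points lie between 2.14 and 3.85, with 6 of the 11 above the median of their box and 5 below it.

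Among all Oaf1 entries the peroxins were of middle height. Under Et-lim, PEX5 ranked 116, PEX11 175, and PEX6 176 of 286 entries, whose median log2(S/N) was 2.75. The highest rank by share was PEX11 under Ox,Glu-lim, 58 of 166 entries with a median of 2.58. PEX11 ranked 106 and PEX6 73 of 164 under N-lim (median 2.63), PEX6 ranked 102 of 166 under Ox,Glu-lim, and PEX5 ranked 95 of 245 under Glu-lim (median 2.91). For Pip2, PEX5 ranked 38 and PEX11 74 of 113 entries under Et-lim (median 2.74), and PEX5 ranked 31 of 124 under Glu-lim (median 2.92).

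The events on peroxins lay nearer to the gene than most. The listed distance was 119 to 216 bp for Oaf1 on peroxins (median 136.5 bp), against a median of 481 bp over all 861 Oaf1 entries, of which 11.6% were at 216 bp or less. For Pip2 it was 114 to 253 bp on peroxins (median 238 bp), against a median of 417.5 bp over all 332 Pip2 entries, of which 23.5% were at 253 bp or less. Some of these Pip2 distances were to the 3′ end, as given above, and over the 185 entries that fitted the start codon the median was 456 bp and 18.4% were at 253 bp or less. The gaps before these genes were 200 to 278 bp wide. Over all 27 peroxins the gap was 173 to 758 bp with a median of 347 bp, and 12 peroxins had a gap of 278 bp or less. Of these 12, 9 had no event. In 15 peroxins the upstream neighbor was transcribed in the opposite direction, as for PEX5 and PEX11, and in 12 in the same direction, as for PEX6.

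By role, the peroxins with events fell into 3 groups. Of the 4 import receptors and coreceptors, PEX5 had events, and PEX7, the receptor for the N-terminal targeting signal, and its coreceptors PEX18 and PEX21 had none. The docking peroxins PEX13, PEX14, and PEX17, and PEX8, which bridges them to the ubiquitin ligases, had none. The RING ubiquitin ligases PEX2 and PEX10 had none. Of the 5 peroxins of receptor ubiquitination and release, PEX6 had events. Its membrane anchor PEX15, the ubiquitin-conjugating enzyme PEX4, and the anchor of that enzyme, PEX22, had none. The membrane protein insertion factors PEX3 and PEX19 had none. Of the 4 peroxins of proliferation and size, PEX11 had events, and PEX25, PEX27, and PEX34 had none. The 5 membrane peroxins PEX28, PEX29, PEX30, PEX31, and PEX32, which act on peroxisome size and number from the peroxisome or the endoplasmic reticulum, had none.

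For 23 of the 24 peroxins without an event, no event of any TF listed for any gene lay within 1200 bp upstream. The exception was PEX25, where events listed for CAR1, which encodes arginase, and for the tRNA gene IMT2 lay 992 to 1106 bp upstream. These were Oaf1 under Et-lim with a log2(S/N) of 1.56, Ino2 under Et-lim (1.24) and Glu-lim (1.39), and Hap1 under Et-lim (3.72), under Ox,Glu-lim (3.80), and also under Glu-lim (3.80).

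The other genes of the peroxisome were counted for the same TFs. Of 15 genes of β-oxidation and transport, 9 (60%) had an Oaf1 or Pip2 event, among them FOX2, the multifunctional enzyme of β-oxidation, and IDP3, the peroxisomal isocitrate dehydrogenase. Under Et-lim 7 of the 15 had an Oaf1 event, with log2(S/N) of 2.20 to 5.62 and a median of 3.08, against 2.37 to 2.94 for the 3 peroxins. For the 4 genes with the highest Oaf1 or Pip2 values of the list, the Oaf1 log2(S/N) under Et-lim was 5.62 for FOX2, 3.90 for the fatty acyl-CoA synthetase gene FAA2, 3.08 for IDP3, and 2.91 for the malate dehydrogenase gene MDH3. Of 12 genes listed as other peroxisomal enzymes, 4 (33.3%) had such an event, with the highest value for LPX1, a peroxisomal lipase (Oaf1, 5.91 under Glu-lim). Among these 4 was LYS4, which encodes a mitochondrial enzyme and was listed only for Pip2 under Et-lim (2.22). Of 4 regulators, PIP2 and ADR1 had one. None of 9 genes of peroxisome inheritance, fission, and turnover had one, and ATG36 was not matched in the tables. The corresponding share was 11.1% of the peroxins and 8.22% of all genes. For Pip2, 52 genes were listed under both Et-lim and Glu-lim, and 2 of these, FOX2 and MDH3, had identical entries in the 2 conditions. Their Pip2 values are not given here, but their entries remained in the counts, ranks, and medians.

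**Figure D4:**
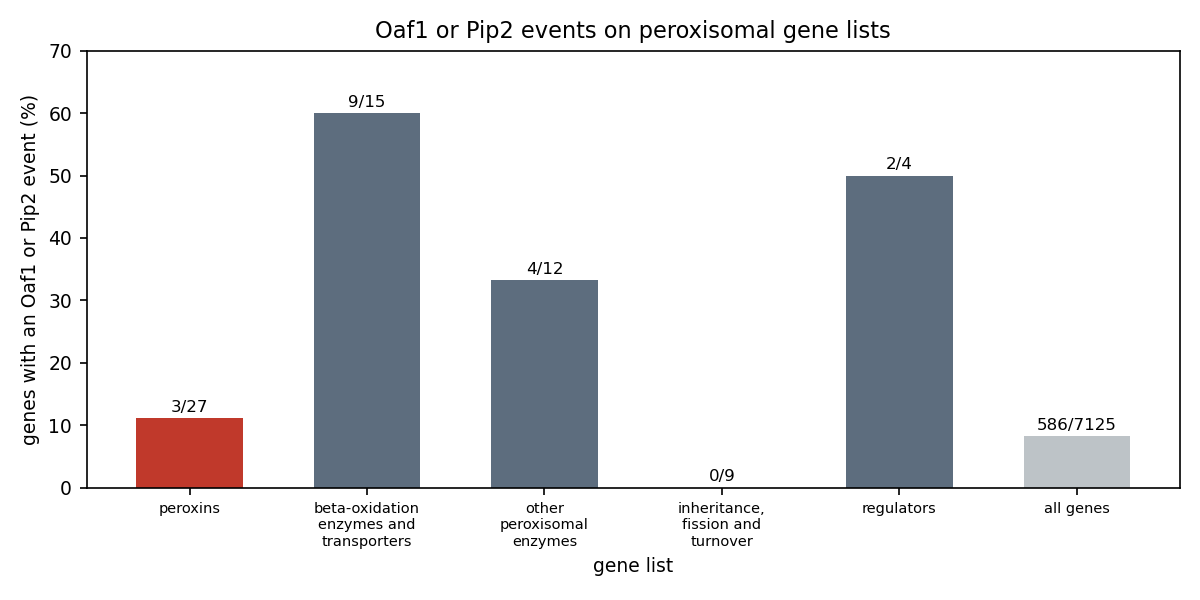
Percent of genes with an Oaf1 or Pip2 event in any condition for the peroxins (red), 4 lists of other peroxisomal genes and regulators (dark gray), and all genes (light gray), with counts above the bars. The peroxins at 3 of 27 stand near all genes at 586 of 7125, and β-oxidation genes at 9 of 15 stand higher. The list of other peroxisomal enzymes includes LYS4, which encodes a mitochondrial enzyme.

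All values pool the replicates of a group, so that the spread between replicates, and with it any test between conditions or TFs, could not be had. The depth of the libraries is unknown. A gene without an event in the tables had none above a log2(S/N) of 1 by the assignment the tables use, which does not show that the TF was absent.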

How the data were processed

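ChIP-exo was done on 40 samples, 5 TFs in 4 conditions with 2 replicates each. The authors aligned reads to the R64 genome with Bowtie2, trimmed 70 bases from the 3′ end, called events with GEM over the replicates, divided the signal by the noise averaged over each replicate, and kept events with log2(S/N) above 1. The deposited log2 values are thus relative to background within a TF and condition. The Pip2 values are log2(S/N) too, in a deposited table with rows of uneven length that was read as a score. The authors also deposited the position, k-mer, strand, and distance of each event, with events assigned to genes within 1200 bp by BEDTools and the highest event kept for each gene. SAMtools is a further tool in the submitters' processing notes, and tool versions were not given in the sources used here.

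The 5 tables gave 100 columns, each the pooled value of 1 group. The tables each have 1 line with no gene, which was not used. Of 7125 genes, 6209 were matched by name to the RefSeq R64 annotation, and the listed distance fitted the reference start codon within 1 bp for 4540 of 4540 matched entries of the 4 TFs other than Pip2 and for all 11 entries of peroxins, so that reference sequences were read at these positions. The reference is strain S288C, not the CEN.PK strain used. Counting and motif searches were done in Python 3.11.15 and tested on planted sequences, with figures drawn in matplotlib 3.10.9.

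All peroxins enter the counts, and they are named, except for some that are not reported here by name, with the genes listed for the same events, the genes beyond their gaps, and up to 4 examples of each peroxisomal list with the highest Oaf1 or Pip2 values. EGT2, CAR1, and IMT2 were named after their values were seen. The members and lists were chosen with earlier results of these data known. Alternatives were thresholds of 1.5 and 2, a distance of 600 bp, upstream entries only, assignment to the nearest gene or start codon, membership by the reference, protein-coding genes as background, and windows of 50 bp in place of 20 bp around an event. Because 1 value exists for each TF, condition, and gene, no statistical test was made.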

Additional observations from a re-analysis of the deposited data

How the results depend on the processing

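Of 53 alternative values, 49 stayed within 1.5 times the value reported. Some of the 49 could not have moved, for the reasons given below. The 3 peroxins with an Oaf1 or Pip2 event and the 24 without any were the same genes with thresholds of 1.5 and 2, a distance of up to 600 bp, the nearest listed gene, and upstream entries only. Of these, only the nearest listed gene could have changed the result. All events on peroxins had a log2(S/N) of at least 2.14, lay at most 253 bp away, and were upstream. With each event given only to the nearest start codon, an alternative added after seeing the data, 2 peroxins kept an Oaf1 event (PEX5 and PEX6) and 0 a Pip2 event, since all 3 Pip2 events lay nearer to PRP28 or PSF3. With the nearest listed gene, 1 peroxin, PEX5, had a Pip2 event in place of 2. The counts for Ino2, Ino4, and Hap1 were 0 under every alternative computed for them. These alternatives can only remove entries, so a count of 0 could not change. The background for Oaf1 or Pip2 was 8.77% of protein-coding genes and 8.22% of all genes. A whole CGGNNNTAA lay within 20 bp of 3 of the 11 events and within 50 bp of 5, and a whole CGGNNNTNA within 20 bp of 5 and within 50 bp of 8. For the long element, chosen after the promoters had been seen, the counts were 5 within 20 bp and 7 within 50 bp. Among the events listed for the peroxins themselves, an Oaf1 and a Pip2 event lay within 20 bp of each other on 1 peroxin, PEX11, and between different conditions, with the same count at 50 bp. The lower Pip2 event of Glu-lim listed for PRP28 lay 19 bp from the Oaf1 event of Et-lim on PEX5 and 40 bp from that of Glu-lim. No paired analysis was possible because the tables pool the replicates of each group, and for the same reason no replicate could be left out.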

Other observations

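The tables list 2 further genes under their systematic names that the reference names as peroxins, and the naming rule left them out. YGR168C, which the reference names PEX35, had no event of any TF. YMR018W, which the reference names PEX9, an import receptor related to PEX5, had events of both Oaf1 and Pip2. It lies on chromosome XIII, 310208 to 311752, plus strand, with a gap of 1525 bp to its neighbor SPO20. Its Oaf1 log2(S/N) was 3.11 under Et-lim at position 309940, 268 bp from ATG. Pip2 was 2.64 under Et-lim at position 309954, 254 bp from ATG, and 2.91 under Glu-lim at position 309906, 302 bp from ATG. No event was listed under N-lim or Ox,Glu-lim, the 2 conditions without events on PEX5. The Pip2 minus Oaf1 difference under Et-lim was -0.46, with the positions 14 bp apart.

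YMR018W held no long element within 300 bp upstream of its start codon. Its Et-lim events of both TFs lay inside a compact element, CGGNNNT, then 8 bases, then CCG, at chrXIII:309939-309956 on the minus strand of R64, 269 to 252 bp before the start codon. It is shown with its fixed bases in capitals, for comparison with the elements of PEX11, PEX5, and PEX6.
YMR018W element: CGGgttTtgtctgcgCCG
A compact element was found in 2.42% of the 300-bp regions before protein-coding genes. The Pip2 event of YMR018W under Glu-lim lay 33 bp outside its compact element. Over all distinct events under Et-lim, 3.14% of Oaf1 and 7.69% of Pip2 events lay inside such an element. Counting both genes, 4 of the peroxins of the reference had an Oaf1 or Pip2 event, 4 an Oaf1 event, 3 a Pip2 event, and 25 no event. Of all genes, 8.22% had an Oaf1 or Pip2 event, 6.34% an Oaf1 event, 3.3% a Pip2 event, and 19.2% an event of any TF.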
